A study of Homo sapiens with 47 samples.

Results

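The genes described here are 9 genes of the mesenchymal program: the mesenchymal genes VIM, FN1, CDH2 and CDH11, and the epithelial-mesenchymal transition (EMT) transcription factors ZEB1, ZEB2, SNAI1, SNAI2 and TWIST1. They were taken by name, and all 9 were found among the 25739 genes of the table. RNA was sequenced from 37 single circulating tumor cells (CTCs) of 5 mice and from 6 single cells of the same line grown in culture. The line is MDA-MB-231-LM2 (LM2), 1 established human triple-negative breast cancer line carrying GFP, which was selected for metastasis to the lung. The tumor cells were placed in the mammary fat pad of young adult NOD/SCID gamma (NSG) mice, which lack mature lymphocytes and natural killer cells but keep myeloid cells, platelets and red cells. CTCs were enriched from blood by size, stained to leave out CD45-positive cells, and picked singly by their GFP signal. There were 2 CTCs from mouse 5541, 4 from 5542, 10 from 5545, 17 from 5546 and 4 from 5549. The labels list 41 CTCs, of which 4 are marked as left out of the processed data. All libraries carry 1 batch label, so no batch could be told apart. No other treatment or allele is named for either group.

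In EMT, epithelial cells lose the junctions that E-cadherin (CDH1) holds together and take on the shape, filaments and motility of mesenchymal cells. The zinc finger factors SNAI1 (Snail), SNAI2 (Slug), ZEB1 and ZEB2 bind E-box motifs and repress CDH1 and other epithelial genes, and TWIST1 is a basic helix-loop-helix factor of the same program. VIM, the intermediate filament of mesenchymal cells, FN1 (fibronectin), a matrix glycoprotein, and the cadherins CDH2 (N-cadherin) and CDH11 are genes whose levels rise in the transition. MDA-MB-231 and its derivatives are known as mesenchymal, claudin-low cells.

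Values are normalized counts, in which the reads of a gene were scaled by a size factor for each cell. Each CTC held 469614 to 2041333 reads on genes and 2227 to 11010 detected genes (median 7353), and each cultured cell held 776949 to 1186197 reads and 7226 to 12271 genes, counting genes found in at least 5 cells. Reads were counted without molecular identifiers and without strand, so intervals on reads cover counting error only, and reads of a gene and of an overlapping antisense gene cannot be told apart. Reads were aligned to the human genome while the host is a mouse. Whether reads of a gene came from tumor RNA or from host RNA aligned to the human gene was not tested. A level is called detected when at least 1 read was counted. Cells are not replicates of a condition. The mouse is the replicate for CTCs, and the cultured cells are 1 culture, so no exact permutation test of 1 culture among 6 sums could give a p-value below 0.167.

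The label of a mesenchymal line held for part of the list. VIM was found in 37 of 37 CTCs (100%, exact 95% binomial interval 90.5 to 100%), ZEB1 in 33 (89.2%, 74.6 to 97.0%) and FN1 in 32 (86.5%, 71.2 to 95.5%). ZEB2 was found in 19 CTCs (51.4%, 34.4 to 68.1%) and SNAI2 in 17 (45.9%, 29.5 to 63.1%). The remaining genes were found in few CTCs: CDH11 in 8 (21.6%, 9.83 to 38.2%), SNAI1 in 5 (13.5%, 4.54 to 28.8%), and CDH2 and TWIST1 in 1 each (2.703%, 0.0684 to 14.2%). In culture VIM and ZEB1 were found in 6 of 6 cells, FN1 in 5, SNAI2 in 4, ZEB2 in 3, CDH11 and SNAI1 in 2, and CDH2 and TWIST1 in 0. VIM, ZEB1 and FN1 thus led in both groups. At an equal depth of 469614 reads per cell, the expected number of CTCs was 31.7 with ZEB1, 16.4 with ZEB2, 16.97 with SNAI2, 6.81 with CDH11 and 4.78 with SNAI1.

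**Figure D1:**
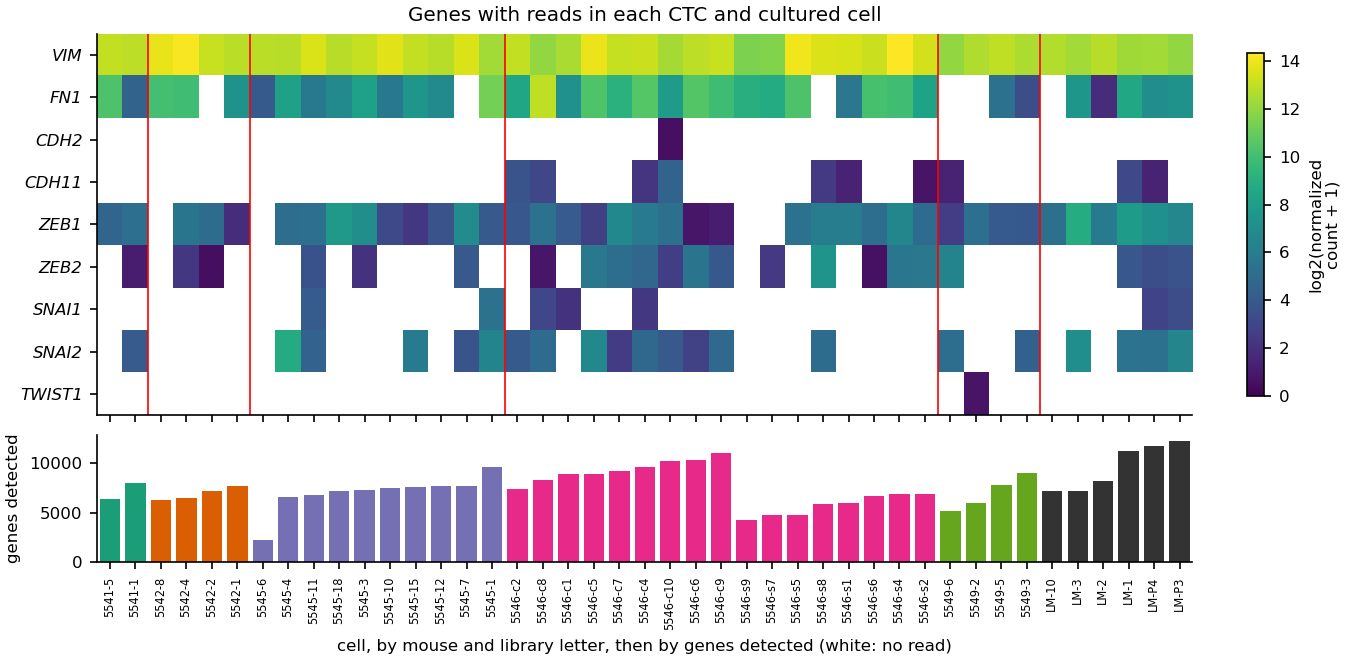
Upper panel: log2(normalized count + 1) of the 9 genes in each of the 37 CTCs and 6 cultured cells (white, no read; red lines separate mice and culture). Lower panel: genes detected per cell. VIM is filled in all 43 columns, while CDH2 and TWIST1 are filled in 1 column each.

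Levels per kilobase of the canonical transcript spanned the whole range from the most abundant transcripts of a CTC to single reads. Averaged over the 5 mice, VIM reached 4165 ± 1104 normalized counts per kilobase (SD, n = 5 mice), FN1 65.1 ± 49.3, SNAI2 9.28 ± 11.5, ZEB1 5.45 ± 2.62, ZEB2 1.14 ± 1.35, SNAI1 0.763 ± 1.44 and CDH11 0.104 ± 0.200. VIM lay above FN1 in 5 of 5 mice with no overlap between their ranges, and ZEB1 lay above ZEB2 in 5 of 5 mice, again with no overlap. FN1 and SNAI2 overlapped, as did SNAI2 and ZEB1, ZEB2 and SNAI1, and SNAI1 and CDH11, so the order of these neighbors did not go beyond the spread between mice. In culture the levels per kilobase were 2576 for VIM, 29.3 for ZEB1, 24.1 for SNAI2, 17.2 for FN1, 1.56 for SNAI1, 0.638 for ZEB2 and 0.237 for CDH11. The order after VIM therefore differed between the groups as listed, with FN1 second in CTCs and ZEB1 second in culture, which was not tested.

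**Figure D2:**
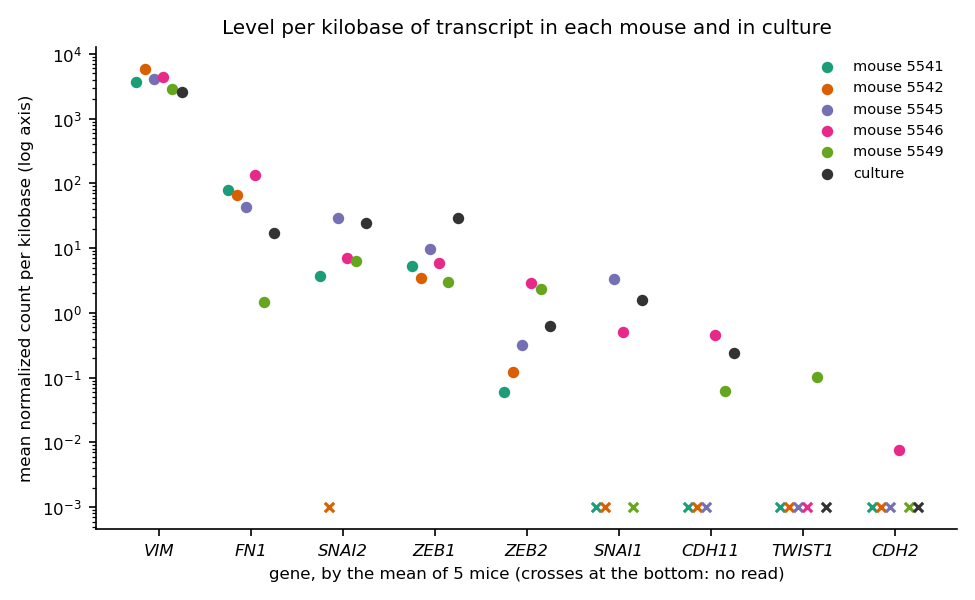
Mean normalized count per kilobase of transcript (log axis) of each gene in the CTCs of each mouse and in the cultured cells; crosses at the bottom mark groups with no read. VIM lies between 2576 and 5857 in all 6 groups, above every value of the other genes.

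To compare CTCs with cultured cells, the mean of each mouse was set against the mean of the 6 cultured cells, with 1 added to both, and a gene was counted as changed when all 5 mice differed at least 4-fold in 1 direction and the larger mean was at least 8. None of the 9 genes met this rule. Among the 9266 genes that reached the minimum, 6 were higher in CTCs (0.0648%) and 487 lower (5.26%). The asymmetry came with a general shift: the median log2 difference over these genes was -1.54 on this scale and -0.77 on RPM (reads of a gene scaled to a fixed library total). Differences of single genes are therefore given beside that median. Without the minimum fold, VIM was the 1 gene of the 9 that was higher than culture in all 5 mice, as were 1.03% of all genes, and ZEB1 was the 1 gene that was lower in all 5 mice, as were 59.6% of all genes. The other 7 genes had mouse means on both sides of the cultured mean or at 0.

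**Figure D3:**
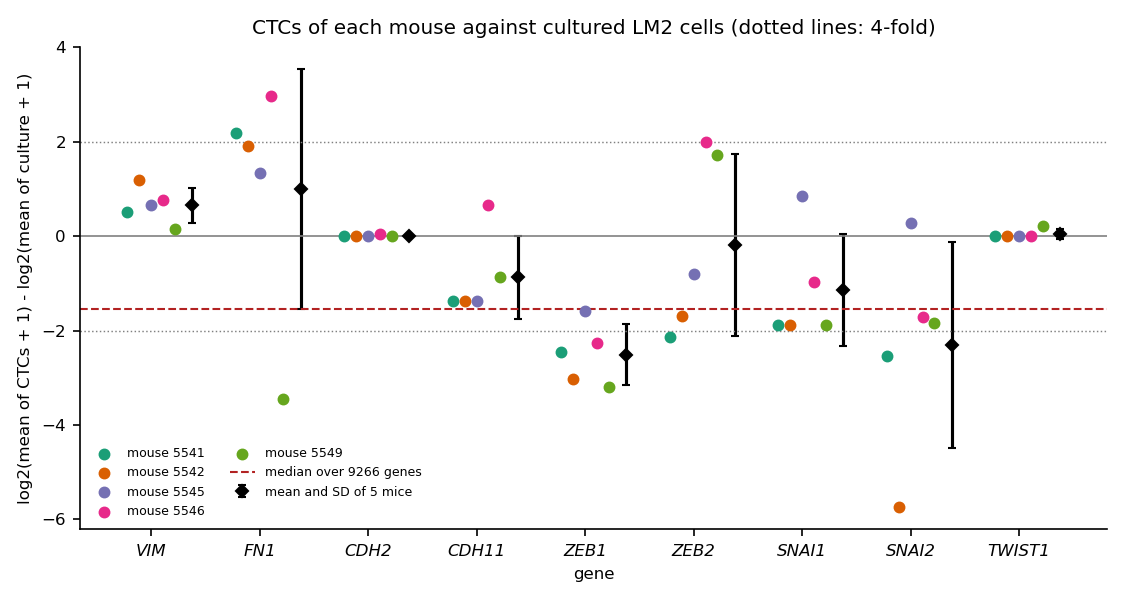
Difference between the log2 mean of the CTCs of each mouse and that of the cultured cells (1 added to each mean); diamonds show the mean and SD of the 5 mice, the dashed line the median of 9266 genes at -1.54, the dotted lines 4-fold. All 5 points of VIM lie above 0 and all 5 of ZEB1 below -1.54, while FN1 runs from -3.44 to 2.98.

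VIM (ENSG00000026025, chromosome 10, 17228241 to 17237593, plus strand, GRCh38) was among the most abundant transcripts of every cell. Over the 37 CTCs its normalized count ran from 2893 in CTC 5546-s9 over a median of 8214 to 20688 in CTC 5546-s4. The 6 cultured cells held 4205, 5021, 5139, 5139, 6557 and 7232. Of the CTCs 26 lay above the highest cultured cell and 4 below the lowest, so the groups overlapped at the low end. VIM took a median of 1.06% of the reads on genes in a CTC and 0.400% in a cultured cell. It ranked first of all genes in CTC 5542-4, and among the first 10 genes in 29 of 37 CTCs but in 0 of 6 cultured cells, where its best rank was 12. Its coefficient of variation over CTCs was 45.3%, against 119% for ZEB1 and 192% for FN1.

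By mouse, the mean of VIM was 7908 in 5541, 12616 in 5542, 8772 in 5545, 9417 in 5546 and 6146.5 in 5549, against 5549 in culture. Without CTC 5549-5, the highest of mouse 5549, the mean of that mouse was 5522, just below culture. The mean log2 difference was 0.65 ± 0.38 (SD, n = 5 mice), or 2.20 above the median of all genes. On RPM the summed CTCs reached 11467 and the culture 4088, and the mean log2 difference was 1.36. The edgeR quasi-likelihood test on reads summed per mouse and over the culture gave VIM a log2 difference of 1.97 ± 0.47 (SE), with p = 0.00130 and adjusted p = 0.999992 over 13813 genes. The direction was the same on all these scales, while the size ranged from 0.65 to 1.97. The identical value of 5139 in cultured cells LM-3 and LM-P4 came from 3758 and 3184 reads, and why it was identical was not tested.

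**Figure D4:**
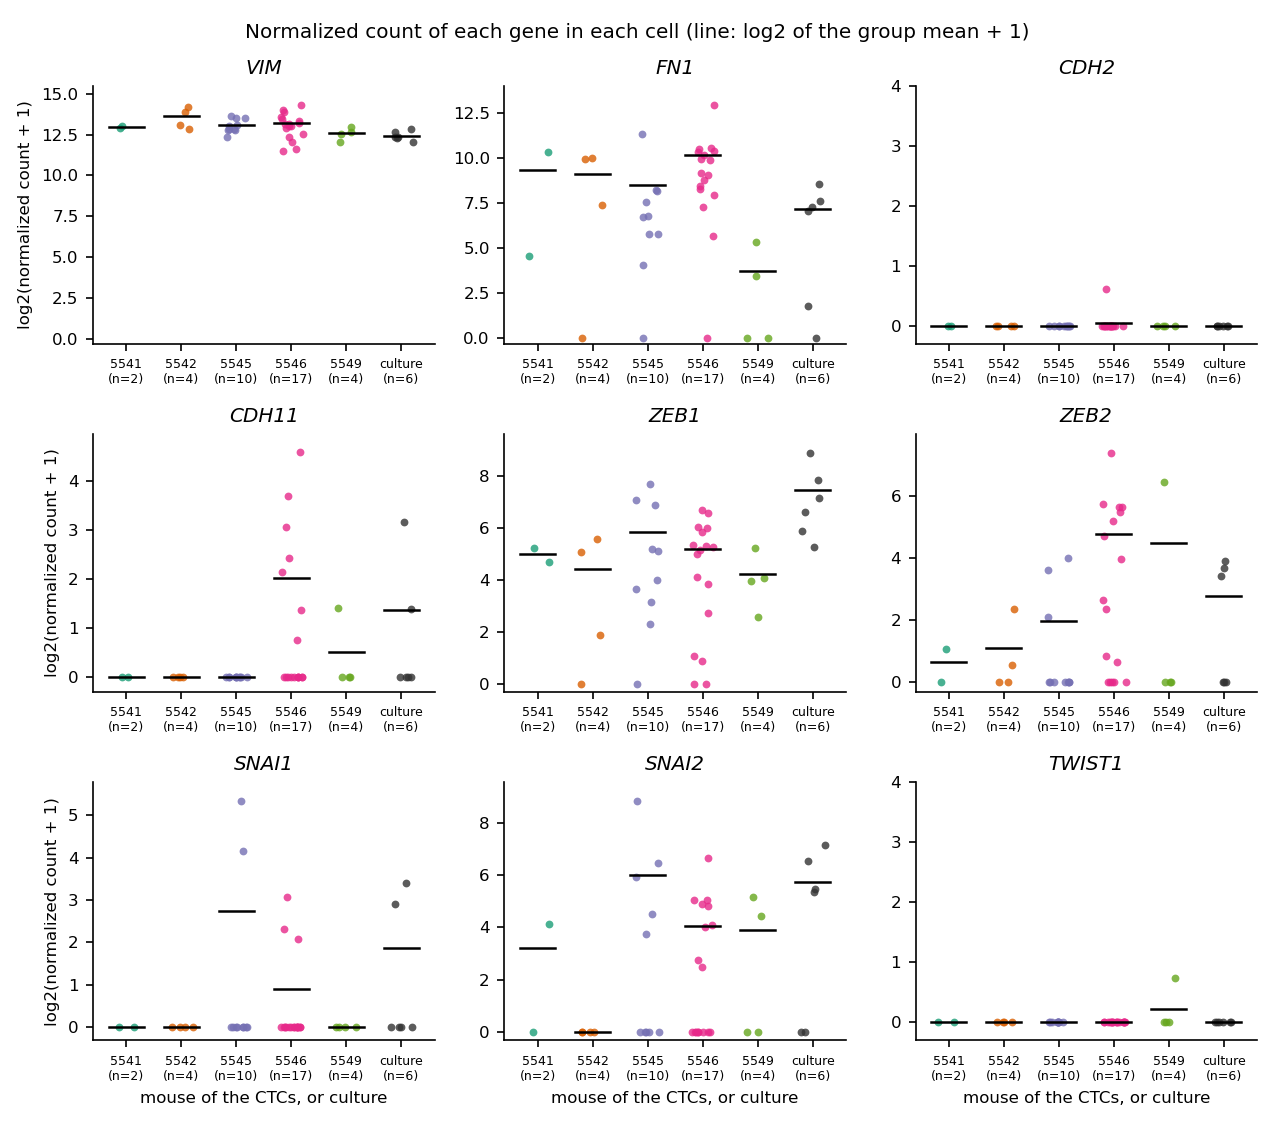
log2(normalized count + 1) of each gene in each CTC, by mouse, and in each cultured cell (points); the line is the log2 of the group mean + 1. VIM is high in every group, FN1 is low in mouse 5549, where the mean is 12.4, and SNAI2 is at 0 in all 4 CTCs of mouse 5542.

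FN1 (ENSG00000115414, chromosome 2, 215360440 to 215436073, minus strand) varied most from cell to cell among VIM, ZEB1 and FN1, the genes found in most CTCs. Its normalized count was 0 in 5 CTCs (5542-2, 5545-7, 5546-s8, 5549-2 and 5549-6), had a median of 288 over all CTCs, and reached 8066 in CTC 5546-c8, where FN1 was the 11th gene of the cell. That CTC held 30.2% of the summed value of all CTCs, and without it the mean fell from 721 to 517. The cultured cells held 0, 2.51, 132, 156, 194 and 382. Of the CTCs 15 lay above the highest cultured cell, and since values of 0 occurred in both groups the ranges overlapped.

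Of the 9 genes, FN1 had the largest SD between mice on the log2 scale. The mean was 660 in mouse 5541, 549.9 in 5542, 368 in 5545 and 1142 in 5546, against a culture mean of 144. With 1 added to both means, these were 4.54-, 3.79-, 2.54- and 7.86-fold above culture. Single CTCs carried much of these means. Without CTC 5541-5 mouse 5541 was at 23.1 and without CTC 5545-1 mouse 5545 was at 124, both below culture, and mouse 5546 was at 709.7 without CTC 5546-c8. In mouse 5549 the mean was 12.4, from values of 0, 0, 10.1 and 39.5, which was 10.9-fold below culture with 1 added to both means. The mean log2 difference was 1.00 ± 2.55 (SD, n = 5 mice), or 2.54 above the median of all genes. It was 2.11 without mouse 5549, and 0.24 with medians over cells in place of means. In the edgeR test the log2 difference was 3.15 ± 1.54 (SE, p = 0.0636, adjusted p = 0.999992), and without mouse 5549 it was 3.45 ± 0.91 (p = 0.00282, adjusted p = 0.999906). The 4 CTCs of mouse 5549 held 103 reads of FN1 together, or 23.3 RPM (exact interval 18.99 to 28.2), against 99.4 RPM in culture (91.3 to 108).

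CDH11 (ENSG00000140937, chromosome 16, 64943753 to 65126112, minus strand), a cadherin of mesenchymal and bone-forming cells, was found mostly in CTCs of mouse 5546. Of the 8 CTCs with reads, 7 came from mouse 5546 and 1 from mouse 5549, and mice 5541, 5542 and 5545 held 0 reads, which allows up to 1.07, 0.469 and 0.253 RPM (3 reads of the total). The highest values were 23.02 in CTC 5546-c10 and 12.0 in CTC 5546-c2, and the cultured cells LM-1 and LM-P4 held 7.96 and 1.61. The level was 4.63 RPM in mouse 5546 (exact interval 3.76 to 5.65) and 0.905 in culture (0.294 to 2.11). Of the 11 CTCs with reads of PTPRC, the gene of the leukocyte antigen CD45, 5 held CDH11, and of the 26 CTCs without them 3 did. Since 8 of the 11 also came from mouse 5546, these counts do not separate PTPRC from the mouse. Over the 37 CTCs the Spearman correlation of CDH11 with a sum of 7 leukocyte markers, named under ZEB2 below, was 0.446. Within mouse 5546 that correlation was -0.0521. The mean log2 difference of CDH11 from culture was -0.87, and -1.10 without these 11 CTCs, while the edgeR estimate was 0.56 and turned to -0.0904 without them. Without cultured cell LM-1 the mean log2 difference was 0.10, so no direction can be given for CDH11.

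CDH2 (ENSG00000170558, chromosome 18, 27932879 to 28177946, minus strand), the cadherin that replaces E-cadherin in many EMT models, gave 1 read in the 46638651 reads of the CTCs, in CTC 5546-c10, and 0 reads in culture. A count of 3 reads would be 0.064 RPM in the CTCs and 0.543 RPM in culture, and both groups lay below it, so no fold is given. TWIST1 (ENSG00000122691, chromosome 7, 19020991 to 19117636, minus strand) likewise gave 1 read, in CTC 5549-2, and 0 reads in culture. Their absence from the other CTCs means only that they were not detected at this depth.

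ZEB1 (ENSG00000148516, chromosome 10, 31318495 to 31529814, plus strand) was the factor found in most cells. Its normalized count ran from 0 in 4 CTCs over a median of 31.03 to 208 in CTC 5545-18. The cultured cells held 37.9, 57.7, 97.3, 144, 231 and 477. No CTC lay above the highest cultured cell, and 26 of 37 lay below the lowest, so the groups overlapped in the remaining 11. Mouse means were 30.9, 20.5, 57.1, 35.3 and 18.1 in mice 5541, 5542, 5545, 5546 and 5549, against 174 in culture.

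With 1 added to both sides, these means lay 5.48-, 8.16-, 3.01-, 4.82- and 9.19-fold below culture, and mouse 5545 kept ZEB1 from meeting the 4-fold rule. The mean log2 difference was -2.51 ± 0.64 (SD, n = 5 mice), or -0.96 relative to the median of all genes. Cultured cell LM-3 held the highest value, and without it the difference was -1.90, or -0.34 relative to the median. In the edgeR test the log2 difference was -1.14 ± 0.90 (SE, p = 0.230, adjusted p = 0.999992), beside a median of 0.31 over the genes tested. ZEB1 was lower on each of these scales, and 59.6% of the genes were also lower in all 5 mice.

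ZEB2 (ENSG00000169554, chromosome 2, 144364364 to 144521057, minus strand), the paralog of ZEB1, was above culture in some mice and below it in others. Its median over CTCs was 0.461 and its highest values were 168 in CTC 5546-s8 and 86.6 in CTC 5549-6. The cultured cells held 0, 0, 0, 9.68, 11.9 and 13.9, with the values above 0 in LM-P4, LM-P3 and LM-1, the cells with the most genes. Mouse means were 0.563 in 5541, 1.14 in 5542 and 2.96 in 5545, all below the culture mean of 5.91, and 26.4 in 5546 and 21.6 in 5549, both above it. In mouse 5549 the whole mean came from CTC 5549-6, since the other 3 CTCs held 0. The mean log2 difference was -0.19 ± 1.93 (SD, n = 5 mice), or 1.36 above the median of all genes, and turned to 0.30 without mouse 5541. The edgeR quasi-likelihood estimate was 1.62 ± 2.38 (SE, p = 0.509, adjusted p = 0.999992). No direction can be given for ZEB2.

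Since ZEB2 is also a gene of myeloid and lymphoid cells, its values were set beside leukocyte markers. Reads of PTPRC were found in 11 CTCs, 8 of mouse 5546, 2 of mouse 5549 and 1 of mouse 5542, and in 0 cultured cells. The reads of PTPRC ran from 1 in CTC 5546-s7 to 381 in CTC 5546-s9, with 12 in CTC 5549-6 as the next highest. ZEB2 was found in 8 of these 11 CTCs, while CTC 5546-s9 held 0 reads of ZEB2. Over the 11 its mean was 32.1, its median 5.23, and its mean without CTC 5546-s8 18.5. In the other 26 CTCs it was found in 11, and over all 26 its mean was 8.40, its median 0. Of 16 leukocyte markers 14 were in the table and all 14 had reads in CTCs. The sum of all 14 had a median of 344.5 in CTCs and 566.9 in culture. Of the 9 that reached the minimum, LAPTM5 and ITGB2 were lower in all 5 mice, and 0 were higher. Over all genes these shares were 59.6% and 1.03%. Among the 14, 7 had no read in culture (PTPRC, TYROBP, FCER1G, ITGAM, SPI1, CSF3R and S100A9), so their sum could not lie below culture. That sum ran from 0 to 1257 in CTCs, with a median of 29.1, of 136.5 in mouse 5546 and of 0 in mouse 5541. Over the 37 CTCs the Spearman correlation of ZEB2 with the sum of these 7 markers was 0.380. It was 0.127 within mouse 5546 and -0.477 within mouse 5545, and the points share libraries and depth. Without the 11 CTCs the mean log2 difference of ZEB2 was -1.11, while that of ZEB1 was -2.35 and that of VIM 0.72. The median of all genes was then -1.70, and relative to it ZEB2 was at 0.59, ZEB1 at -0.65 and VIM at 2.42. The edgeR estimate of ZEB2 without the 11 CTCs was 1.04, so its sign differed between the scales.

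Per kilobase of transcript, the level of ZEB1 exceeded that of ZEB2 in all 6 cultured cells and in 27 of 37 CTCs. The level of ZEB2 was the higher in 7 CTCs, of which 6 came from mouse 5546 (5546-c5, 5546-c6, 5546-c9, 5546-s2, 5546-s7 and 5546-s8) and 1 from mouse 5549 (5549-6). In CTC 5546-s2 the levels per kilobase lay close together, at 5.36 for ZEB2 and 5.23 for ZEB1. In 3 CTCs neither gene was detected. CTC 5546-c6 held 2 reads of ZEB1 and 106 of ZEB2, whereas CTC 5545-18 held 426 reads of ZEB1 and 0 of ZEB2. Both genes were found together in 18 CTCs.

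**Figure D5:**
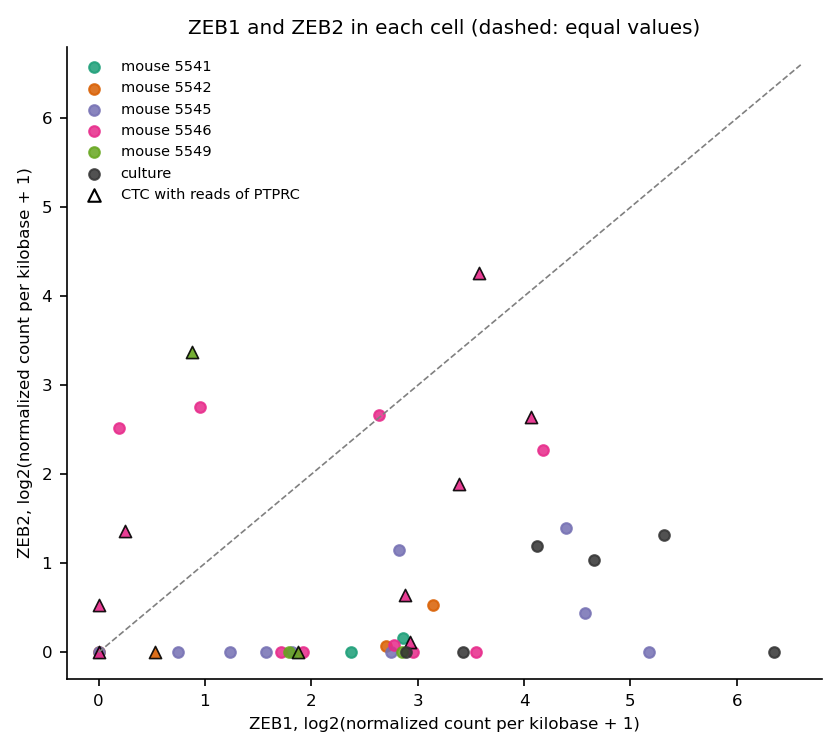
ZEB1 against ZEB2, both as log2(normalized count per kilobase + 1), in each CTC by mouse and in each cultured cell; triangles are the 11 CTCs with reads of PTPRC. All 6 cultured cells lie below the dashed line of equal values, and 7 CTCs lie above it.

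SNAI2 (ENSG00000019549, chromosome 8, 48917598 to 48921740, minus strand) was the more frequent of the SNAI factors. Its highest value, 454 in CTC 5545-4, held 46.8% of the sum over all CTCs, and the next was 101 in CTC 5546-c5. The mean over CTCs was 26.2, and 14.4 without CTC 5545-4. The cultured cells held 0, 0, 40.4, 43.8, 91.4 and 139. Mouse means were 8.16 in 5541, 0 in 5542, 63.6 in 5545, 15.4 in 5546 and 13.9 in 5549, against 52.5 in culture. Without CTC 5545-4 mouse 5545 was at 20.2, and all 5 mice were then below culture. The 4 CTCs of mouse 5542 held 0 reads of SNAI2 among 6390937, which allows up to 0.469 RPM, whereas culture held 40.9 RPM (exact interval 35.8 to 46.6). The mean log2 difference was -2.31 ± 2.18 (SD, n = 5 mice), or -0.77 relative to the median of all genes. Without mouse 5542 it was -1.45, or 0.0870 relative to the median. The edgeR quasi-likelihood estimate was -0.85 ± 1.79 (SE, p = 0.645, adjusted p = 0.999992).

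Within mouse 5546, SNAI2 was found in 8 of the 9 CTCs whose library names carry the letter c and in 1 of the 8 whose names carry the letter s. The meaning of the letters is not given in the sources used here. The c libraries held 7438 to 11010 genes and the s libraries 4225 to 6942, with no overlap, so letter and gene number cannot be told apart. VIM did not follow the letters in this way, with a mean of 8198 in c and 10789 in s libraries. ZEB1 was found in 9 of 9 c and 6 of 8 s libraries, and FN1 in 9 of 9 and 7 of 8. ZEB2 was found in 7 of 9 c and 5 of 8 s libraries, and SNAI1 in 3 of 9 and 0 of 8.

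SNAI1 (ENSG00000124216, chromosome 20, 49982980 to 49988886, plus strand), the founding member of the Snail family in EMT, was found in 5 CTCs. The values were 39.6 in 5545-1, 16.8 in 5545-11, 7.35 in 5546-c8, 4.00 in 5546-c4 and 3.24 in 5546-c1, and in culture 9.50 in LM-P3 and 6.46 in LM-P4. CTC 5545-1 held 55.7% of the sum. On RPM the summed CTCs held 2.08 (exact interval 1.69 to 2.54) and the culture 2.17 (1.12 to 3.796), which overlapped. The fitted difference changed sign with the setting and no direction can be given.

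Combinations of factors are given with the median number of genes detected in their cells. The most frequent pattern was ZEB1, ZEB2 and SNAI2 together, in 9 CTCs with a median of 8975 genes, followed by ZEB1 alone in 8 CTCs (7333 genes) and ZEB1 with ZEB2 in 6 (6911 genes). ZEB1 with SNAI2 was found in 4 CTCs, and ZEB1, ZEB2, SNAI1 and SNAI2 together in 3. In 3 CTCs (5542-8, 5545-6 and 5546-s9) no factor was detected, with a median of 4225 genes. Every one of the 17 CTCs with SNAI2 and of the 5 with SNAI1 also held ZEB1. The 3 CTCs without a factor still held VIM at 15018, 7276 and 2893 and FN1 at 1049, 15.8 and 534.

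A CTC held 2 to 7 of the 9 genes, with a median of 4, and a cultured cell 2 to 7 with a median of 5. The highest number, 7, was found in 5546-c10, 5546-c4 and 5546-c8. Over the 37 CTCs the number correlated with genes detected at a Spearman rho of 0.551 and with reads at -0.0473, which describes cells that share mice and size factors. CTCs with SNAI2 had a median of 8294 genes and those without it 6785.5, whereas the medians for ZEB2 were 7353 and 7305.5. The median number of the 9 genes was 3.5 without mouse 5546 and 4 without any of the other mice.

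Correlations were described for VIM, FN1, ZEB1, ZEB2 and SNAI2. Over the 37 CTCs the Spearman rho was 0.320 between VIM and ZEB1, 0.351 between ZEB2 and SNAI2, 0.302 between VIM and ZEB2, 0.254 between ZEB1 and ZEB2, and between -0.109 and 0.117 for the other pairs. VIM and ZEB1 gave 0.558 within mouse 5546 and -0.0545 within mouse 5545. Within mouse 5545 VIM and ZEB2 gave 0.574, ZEB1 and ZEB2 0.544 and VIM and FN1 -0.515, each over 10 CTCs that share a mouse. The genes most like each member over the 37 CTCs were then ranked among 6869 genes with a mean of at least 8 and reads in at least 30% of CTCs. The gene most like VIM was ENSG00000234961 (rho 0.872), which lies on the opposite strand of VIM and whose mean was 13.6, followed by ZFAND2A (0.670) and ALKBH7 (0.655). Reads of VIM and of ENSG00000234961 cannot be told apart without strand. The genes most like FN1 were the actin-severing protein gelsolin, GSN (0.699), the type I collagen chain COL1A1 (0.698) and EAPP (0.685). ZEB1 was most like the co-chaperone DNAJB1 (0.589), SGPL1 (0.578) and CCN1 (0.571), a matrix protein and target of YAP. ZEB2 was most like the syndecan SDC4 (0.688), TRIM52-AS1 (0.686) and PTP4A2 (0.649).

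Other genes of the program were examined as lists. Of 13 other EMT factors 9 were in the table and all 9 had reads in CTCs, and 0 met the 4-fold rule. Among them was SOX4, with a mean of 87.4, a highest value of 947 in CTC 5541-5 and 71.4 in culture. Without CTC 5541-5 the mean of SOX4 was 63.6. Its mouse means ran from 1.26 to 483, and its mean log2 difference was -1.04 ± 3.11 (SD, n = 5 mice). Of 9 partners of these factors (co-repressors, dimer partners and the kinase GSK3B), 8 were lower than culture in all 5 mice, beside 59.6% of all genes. EZH2, the methyltransferase of the Polycomb complex, met the 4-fold rule, with 25.6 in CTCs against 155 in culture, as did 5.26% of all genes in that direction. The median log2 difference of the partners was -1.45, beside -1.54 for all genes.

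Of 22 other mesenchymal genes 20 were in the table and 17 reached the minimum. Of these ACTA2, smooth muscle actin, met the rule upward, as did 0.0648% of all genes, with mouse means from 6.74 to 35.7 (859 reads) against a mean of 0.407 in culture (2 reads). TAGLN, a calponin-like actin-binding protein, met it downward, with a CTC mean of 1.76 against 27.6, and of 1.02 without CTC 5546-s1. TNC (tenascin) was also higher in all 5 mice, and SPARC, MMP2, LOXL2 and AXL were lower in all 5. With ACTA2 and TAGLN this made 2 of 17 higher, beside 1.03% of all genes, and 5 of 17 lower, beside 59.6%. The mouse means of TNC ran from 14.4 to 325, against 8.83 in culture. The highest, in mouse 5549, came mostly from CTC 5549-6, at 1291, so its place above culture in that mouse rested on that CTC. Without CTC 5549-6 the mean of TNC over CTCs fell from 54.9 to 20.6. The receptor tyrosine kinase AXL was the most abundant gene of this list, at 1830 in CTCs and 4439 in culture. The median log2 difference of the 17 genes was -0.75, beside -1.54 for all genes. ACTA2 also stands on the list of fibroblast markers, of which 6 of 8 were in the table. Among those COL1A1 was found in 29 CTCs and 4 cultured cells, COL1A2 in 4 CTCs, DCN and PDGFRB in 2 each and LUM in 0, so that DCN, LUM and PDGFRB were at or near 0.

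Among genes that act with the members, 4 of 4 catenins, which tie cadherins to actin, were found, of which CTNNA1 and CTNNB1 were lower in all 5 mice and none met the rule. Of 6 filament partners of vimentin, 5 were in the table and NES (nestin) was higher in all 5 mice, with means of 8.74 to 19.6 against 1.67. Of 6 fibronectin receptors, ITGB3 was higher and ITGA5 and ITGB1 were lower in all 5 mice. ITGB3 was found in 14 CTCs, with mouse means from 1.68 to 36.7, against 0.332 in culture (1 read). Its mean over CTCs was 8.03, and 4.70 without CTC 5542-8, where it reached 128. Of 9 genes of the TGF-beta pathway, an inducer of EMT, TGFBR2 was higher and TGFB2, TGFBR1, SMAD2 and SMAD3 were lower in all 5 mice, and none met the rule. Of the genes past the minimum, lower in all 5 mice were 2 of 4 catenins, 2 of 5 fibronectin receptors and 4 of 6 TGF-beta genes, beside 59.6% of all genes. Higher in all 5 mice were 1 of 2 filament partners, 1 of 5 receptors and 1 of 6 TGF-beta genes, beside 1.03%. Of 7 other cadherins 5 were in the table, and the 1 that reached the minimum, CDH4, had a mean of 10.3 against 24.5 in culture, and of 3.31 without CTC 5549-2, where it reached 261.9.

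Epithelial genes, several of which the EMT factors repress, were not uniformly absent. Of 25 such genes 19 were in the table, 18 had reads in CTCs and 0 met the rule in either direction, while EPCAM, KRT7, KRT18, DSP and MARVELD2 were lower in all 5 mice. These were 5 of the 10 that reached the minimum, beside 59.6% of all genes. KRT19 had the largest mean log2 difference upward on the list, 1.94 ± 1.57 (SD, n = 5 mice). Its means were 1023 in mouse 5541, 274 in 5542, 574 in 5545 and 166 in 5546, against 71.8 in culture. In mouse 5549 it was below culture, at 60.9. CDH1 was found in 1 CTC, 5545-12, with 11 reads, and in 0 cultured cells. KRT8 and KRT18 were found in 37 of 37 CTCs with means of 794 and 973, and in 6 of 6 cultured cells with means of 608 and 1894. EPCAM was found in 8 CTCs and 5 cultured cells. Every CTC and every cultured cell therefore held VIM together with KRT8 and KRT18.

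In the edgeR test 7 of the 9 genes could be tested, since CDH2 and TWIST1 did not pass its filter on low counts. It called 0 of them, and it called 0 of 13813 genes in either direction (0%), with 241 at an unadjusted p below 0.05, of which VIM was the only member. DESeq2 on the same sums called 14 genes, none of them among the 9. The test rests on 1 culture, which is assumed to vary as the mice do.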

How the data were processed

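Single-cell SMARTseq2 libraries of 37 LM2 CTCs and 6 cultured LM2 cells were used. The deposited values are a signal, read counts per gene scaled by size factors that the authors computed in DESeq2 1.42.1 after aligning uniquely mapped reads to GRCh38 with STAR 2.7.10a and counting without strand. CTCs with low unique mapping or a high mitochondrial share had been left out by the authors. Values of a cell were whole multiples of its lowest value above 0 in 100% of cases (tolerance 0.001), and these recovered reads, 469614 to 2041333 per cell, were used for depth, intervals, thinning and edgeR.

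Gene names, coordinates and canonical transcript lengths came from GENCODE 44 on GRCh38. Groups came from the labels. The edgeR 4.0.16 quasi-likelihood test (TMM, filter on low counts, Benjamini-Hochberg over all genes) compared 5 sums by mouse with 1 culture sum. The SE printed with its estimates was derived from the test, as the absolute log2 difference divided by the square root of the F statistic. DESeq2 1.42.0 was an alternative, and other alternatives changed the pseudocount, fold, minimum, scaling and averages or left out each mouse and cultured cell. Where the labels give no separate cultures, the spread between cultured cells may be technical. All 9 members are named, with genes of 15 lists and, for members in at least 18 CTCs, the 3 genes with the highest correlation. The members and lists were chosen with earlier results of these data known. R 4.3.3 and Python 3.11.15 were used, and the steps were tested on simulated data.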

Additional observations from a re-analysis of the deposited data

Results flagged for a closer look

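Among 33 groups of 4 to 10 cells, 1 held a cell whose gap to its nearest neighbor was large for the range of the group on the log2(value + 1) scale. In the 8 s libraries of mouse 5546 the lowest FN1 value was 0 in CTC 5546-s8, and the next lowest was 49.9, a gap of 0.549 of the range on that scale. The cutoffs used mark about 1 in 20 groups of normally distributed values. Many of the groups here hold values of 0, so that rate need not apply to them. The same CTC held the highest ZEB2 of all CTCs (168) and a VIM value of 12051.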

How the results depend on the processing

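The number of the 9 genes past the rule of size was 0 with pseudocounts of 0.1 and 8, with no minimum mean, on RPM and with medians over cells. It was 1 with 2-fold in place of 4-fold (ZEB1, lower) and 2 with no minimum fold (VIM higher, ZEB1 lower), a setting chosen after seeing the data. Leaving out a mouse or a cultured cell gave 0 to 1, the 1 being ZEB1 without mouse 5545. Over all genes 487 were lower and 6 higher by the rule. Both directions together gave 147 with a pseudocount of 8, 2322 with 2-fold, 149 on RPM, 1359 with medians, 5621 with no minimum fold, and 406 to 765 with a mouse or cultured cell left out, 765 without mouse 5545. Of the calls 98.8% were lower, and 91.9% on RPM. The edgeR test called 0 members in each of its 18 alternatives. Over all genes it called 0 to 1 with a mouse or cultured cell left out (1 without mouse 5545), 27 with no filter and 14 with DESeq2.

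The fitted log2 difference of SNAI1, 0.02, ran from -2.22 without mouse 5545 to 1.18 without cultured cell LM-P3, and was also below 0 without LM-1, LM-10, LM-2 or LM-3 (-0.26, -0.15, -0.14 and -0.20), with RLE size factors (-0.0174) and with DESeq2 (-0.0320). That of CDH11, 0.56, turned to -0.0904 without the CTCs with reads of PTPRC, also chosen after seeing the data. The cause was not tested. The number of the 9 genes per CTC stayed between 3 and 4, with 3.5 to 4 when a mouse was left out. No paired analysis was possible because the numbers in library names only name picked cells. Depth limits CDH2 and TWIST1, with 1 read each, and 5 mice against 1 culture limit every comparison.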

Other observations

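VIM-AS1, ZEB1-AS1 and ZEB2-AS1, antisense neighbors of the members, had few reads in most cells and far higher values in single CTCs. ENSG00000234961, on the opposite strand of VIM, was instead found in 37 CTCs, with a mean of 13.6 and a highest value of 38.2. VIM-AS1 was found in 13 CTCs and ZEB1-AS1 in 11, and both were highest in CTC 5549-6, at 511 and 259.8. In that CTC, where 1 read equals 1.67 normalized counts, VIM was 4195, its 34th gene, and ZEB1 was 5.00, from 3 reads. The mean of ZEB1-AS1 over all CTCs was 8.44 and that of VIM-AS1 18.4, and without CTC 5549-6 they were 1.46 and 4.73. ZEB2-AS1 was found in 3 CTCs and was highest, at 14.0, in CTC 5546-s8, which also held the highest ZEB2. CTC 5549-6 also held the highest HBB (12138) and TYROBP (102) of all CTCs.

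Markers of other blood and vessel cells were found to differing degrees. Of 7 erythroid markers 5 were in the table, and their sum had a median of 1289 in CTCs and was 0 in all cultured cells; HBB and HBD met the 4-fold rule upward. Of 6 platelet markers 6 were in the table, with a median sum of 0 and a highest of 77.3. Of 7 endothelial markers 4 were in the table, with a median sum of 0 in CTCs and a highest of 28.6, against a highest of 37.1 in culture.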
